A study of Homo sapiens with 8 samples.

Results

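Fanconi anaemia and homologous recombination genes were measured by RNA sequencing in a pair of established human clear cell renal carcinoma lines, 769-P and CAKI-1, grown with or without branched-chain amino acids (BCAA). The group holds 37 named genes. They were picked out by symbol, through the Ensembl identifier of each row. No threshold on their values was used, but the list was made with earlier results of these data known. All 37 were listed in both tables, among 25431 listed genes in 769-P and 24190 in CAKI-1, and all 37 passed the filter on low values (a mean of at least 1 normalised read) in each line.

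Each line had 2 libraries with BCAA and 2 without, 8 in all, taken after 16 h. In the medium with BCAA, leucine and isoleucine were each at 0.38 mM, and valine was at 0.17 mM. Per the study's methods, the depleted medium was made from amino acid-free RPMI 1640 powder with dialysed serum, whereas the stock cultures of 769-P were kept in RPMI 1640 and those of CAKI-1 in MEM. No gene was edited or silenced in these 8 libraries, and each cell line is a single line from a repository. Reads on listed genes ranged from 30979773 to 64256834 per library. In 769-P both libraries with BCAA (64256834 and 55829324 reads) were deeper than both without (39062721 and 40130258), so that depth and condition cannot be told apart there. The defining renal markers PAX8, VIM, KRT8 and KRT18 were present in both lines, PAX2 was present in 769-P and not analysed in CAKI-1, CA9 was not analysed here, and NDUFA4L2 was near 0 in 769-P. Of 10 markers of other cells, those of blood, endothelium, liver, pancreas and lung were near 0 or not analysed here. The exceptions were COL1A1 and TTN. COL1A1 had 145196 and 120846 normalised reads with BCAA and 98609 and 116332 without in CAKI-1, where it was called higher (log2 fold change 0.31, limma adjusted p = 0.0427), and TTN had 118 and 105 against 278 and 214 in 769-P, where it was called lower (-1.12). These were the marker calls among 3 tested genes of the list in CAKI-1 and 5 in 769-P. The list summed to 262 to 308 with BCAA and 430.5 to 504 without in 769-P, and to 120848 to 145203 and 98619 to 116337 in CAKI-1. Of the renal markers, 2 of 8 tested were called higher and 2 lower in 769-P, and 3 of 7 lower in CAKI-1. The part of these changes in the results was not tested.

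The Fanconi pathway repairs DNA strands that are covalently crosslinked to each other. A core complex of FANC proteins, with the ubiquitin-conjugating enzyme UBE2T, attaches ubiquitin to the FANCD2-FANCI pair, which directs incision of the crosslink. The resulting break is then resected and copied from the sister chromatid by homologous recombination, which BRCA1 and BRCA2 promote. The kinases ATM and ATR, with CHEK1 and CHEK2 downstream, halt the cell cycle meanwhile. Many of these genes are known to be transcribed chiefly in S and G2 phase. In a bulk sample, a change in the share of cells in a phase and a change in RNA per cell cannot be told apart.

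Most of the repair genes were higher with BCAA in both lines. In 769-P 29 of the 37 were called higher and 3 lower (FANCF, RAD50 and ATM), where 20.3% of all 22391 tested genes were called higher and 18.2% lower. In CAKI-1 24 were called higher and 2 lower (FANCF and RAD50), against 10.8% and 9.05% of 21347 tested genes. The median log2 fold change, with minus without BCAA on the log2(value + 1) scale, was 0.60 over the members in 769-P and 0.73 in CAKI-1, beside -0.02 and -0.01 over all tested genes. A call is a Benjamini-Hochberg adjusted p under 0.05 from limma over all tested genes of that line. The same 24 genes were called higher in both lines. FANCC, FANCG, FANCL, MRE11 and RMI2 were called higher in 769-P and passed the test in neither direction in CAKI-1, and PALB2, RAD51B, RAD51D, FANCE and RBBP8 were called in neither line. Over the 37 members the log2 fold changes of the lines had a Pearson correlation of 0.79 and a Spearman correlation of 0.78, a description over genes that share the same 8 libraries.

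The normalised reads of all 37 members added up to 90721 and 87591 in the libraries of 769-P with BCAA and to 66028 and 66304 without. In CAKI-1 the sums were 47467 and 44433 with BCAA and 34114 and 34737 without. The groups did not overlap in either line. On reads thinned to the same depth in every library, 29 members were called higher and 2 lower in 769-P, and 23 higher and 2 lower in CAKI-1. These calls rested on 2 libraries per condition: within 769-P, limma called 17 members higher without the first BCAA library and 19 without the second, and 1 lower whichever of the 4 libraries was left out. Leaving out any 1 library of CAKI-1 lost every limma call of a member within that line. The median log2 fold change of the members in CAKI-1 then ran from 0.68 to 0.78.

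**Figure D1:**
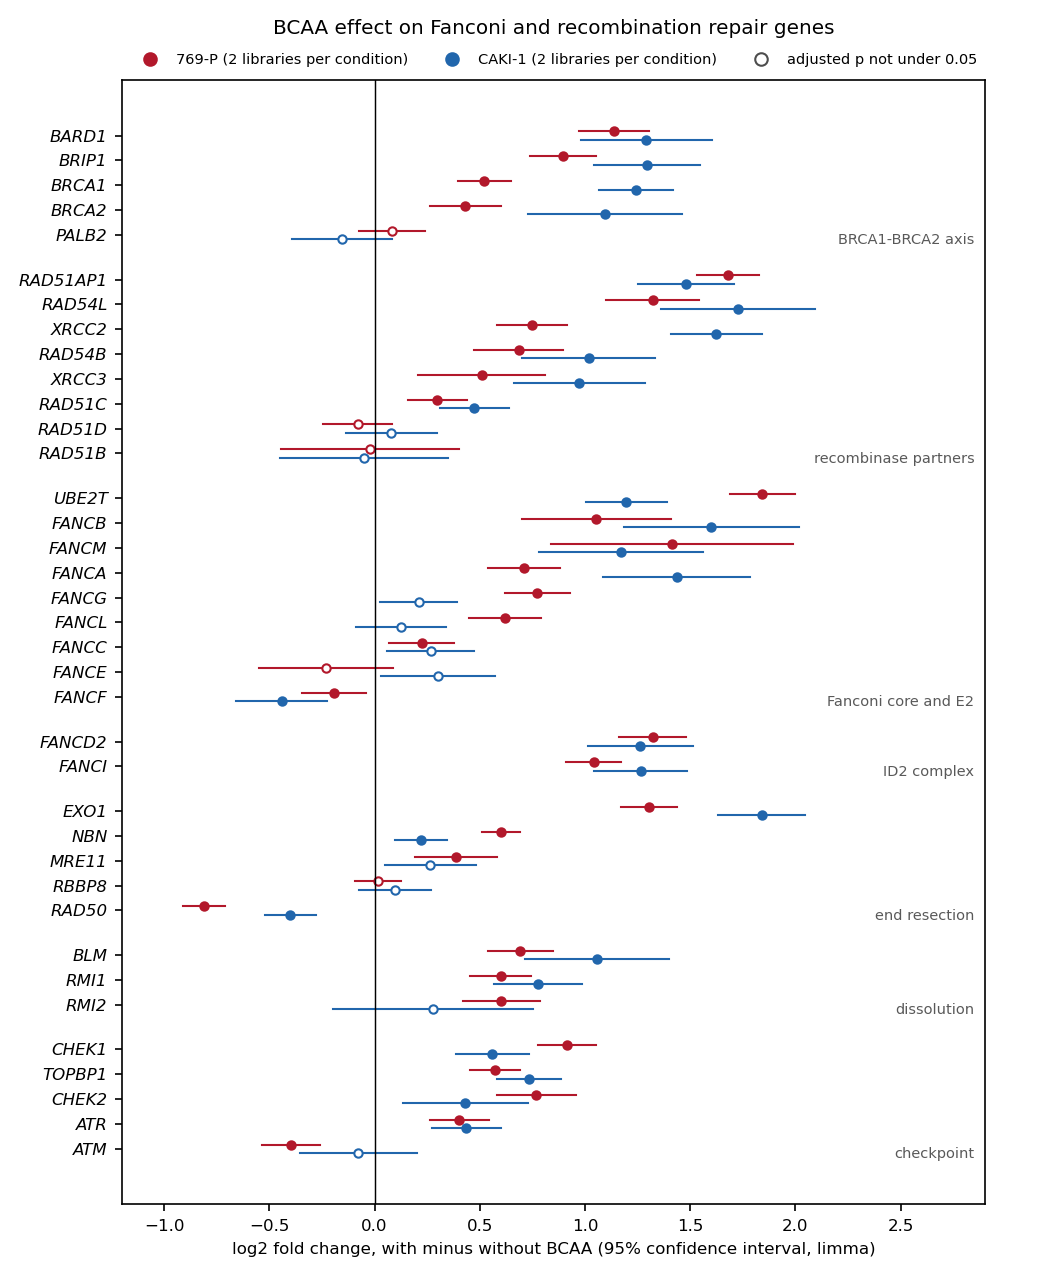
Log2 fold change with minus without BCAA for each of the 37 genes in 769-P (red) and CAKI-1 (blue), with the 95% confidence interval from limma, 2 libraries per condition, grouped by role. Open points did not pass the test. Most points lie to the right of 0 in both lines. RAD50, FANCF, ATM and RAD51B lie to the left in both, though ATM in CAKI-1 and RAD51B in both lines did not pass the test.

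To show where transcription of the strongest responders begins, the promoter windows of the 5 members with the largest mean rise over both lines are given with that of RAD50, which had the lowest mean. The windows come from RefSeq (GRCh38.p14), run 5′ to 3′ on the gene's strand and cover 250 bases before to 50 bases after the start. Capitals mark matches to any of the searched motifs on either strand. These were E2F-like (TTTCCCGC, TTTGGCGC, TTTCGCGC, TTTGCCGC), CHR-like (TTTGAA, or the variant letters TTCGAA) and the CCAAT box, which reads ATTGG when it lies on the other strand. No marked match overlapped another.
RAD51AP1, chr12:4538640-4538939, plus strand: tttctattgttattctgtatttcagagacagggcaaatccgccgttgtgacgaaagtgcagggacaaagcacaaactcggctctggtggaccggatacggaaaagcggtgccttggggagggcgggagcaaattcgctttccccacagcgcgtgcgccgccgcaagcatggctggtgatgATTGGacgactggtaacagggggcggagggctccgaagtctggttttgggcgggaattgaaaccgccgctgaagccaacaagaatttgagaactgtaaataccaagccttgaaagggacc
EXO1, chr1:241847954-241848253, plus strand: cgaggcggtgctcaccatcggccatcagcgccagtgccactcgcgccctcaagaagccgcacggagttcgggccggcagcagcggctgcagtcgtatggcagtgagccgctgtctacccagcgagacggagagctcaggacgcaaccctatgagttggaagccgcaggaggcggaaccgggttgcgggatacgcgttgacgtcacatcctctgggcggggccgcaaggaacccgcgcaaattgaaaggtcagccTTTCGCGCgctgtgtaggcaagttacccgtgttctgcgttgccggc
RAD54L, chr1:46247438-46247737, plus strand: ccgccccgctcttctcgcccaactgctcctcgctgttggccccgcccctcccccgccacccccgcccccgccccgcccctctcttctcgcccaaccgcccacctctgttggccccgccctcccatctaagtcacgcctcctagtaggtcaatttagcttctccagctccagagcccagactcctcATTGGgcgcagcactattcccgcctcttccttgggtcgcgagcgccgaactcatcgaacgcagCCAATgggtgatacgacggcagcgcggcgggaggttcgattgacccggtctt
UBE2T, chr1:202341887-202342186, minus strand: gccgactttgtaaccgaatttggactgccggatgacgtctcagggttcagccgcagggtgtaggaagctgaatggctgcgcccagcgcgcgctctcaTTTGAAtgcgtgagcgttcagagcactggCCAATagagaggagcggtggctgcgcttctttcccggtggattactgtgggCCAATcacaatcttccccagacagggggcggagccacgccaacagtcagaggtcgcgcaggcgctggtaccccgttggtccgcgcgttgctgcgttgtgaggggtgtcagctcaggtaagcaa
FANCB, chrX:14873020-14873319, minus strand: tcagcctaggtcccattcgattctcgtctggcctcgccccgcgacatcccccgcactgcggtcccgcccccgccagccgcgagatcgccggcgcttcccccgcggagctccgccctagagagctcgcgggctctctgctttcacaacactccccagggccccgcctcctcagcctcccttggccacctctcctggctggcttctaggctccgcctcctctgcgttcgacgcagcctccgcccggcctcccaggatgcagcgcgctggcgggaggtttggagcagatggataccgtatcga
RAD50, chr5:132556727-132557026, plus strand: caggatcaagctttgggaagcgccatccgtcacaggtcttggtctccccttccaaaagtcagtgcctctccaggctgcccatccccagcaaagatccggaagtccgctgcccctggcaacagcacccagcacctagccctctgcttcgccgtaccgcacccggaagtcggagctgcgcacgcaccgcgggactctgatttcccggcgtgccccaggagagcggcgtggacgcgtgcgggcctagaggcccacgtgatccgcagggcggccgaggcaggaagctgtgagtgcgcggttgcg
The UBE2T window held a CHR-like match 153 bases before the start and 2 CCAAT matches. In the EXO1 window an E2F-like match began 4 bases after the start, and a second annotated start of EXO1 had no match. RAD51AP1 had 1 CCAAT match and RAD54L had 2, whereas FANCB and RAD50 had none. Windows were found for 33 members. NBN, RAD54B, FANCI and RMI2 had no entry. E2F-like letters were present for 7 of these 33 (21.2%), namely XRCC2, FANCA, FANCC, FANCD2, EXO1, RMI1 and TOPBP1, and for 3.99% of the 27305 genes with a window. CCAAT was present for 16 of 33 (48.5%) against 39.7% of all genes, and the CHR-like letters for 4 of 33 (12.1%; BRIP1, FANCC, UBE2T and ATM) against 19.5%. Among the 21 members with a window that were called higher in both lines, 6 (28.6%) had E2F-like letters, and FANCC was the 1 of the other 12 (8.33%) that did. These matches describe letters in a window and were not tested as binding sites.

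The Fanconi core complex and its E2 enzyme, 9 genes in all, had a median log2 fold change of 0.71 in 769-P, with 7 called higher and 1 lower. In CAKI-1 the median was 0.30, with 4 called higher and 1 lower. UBE2T, on chromosome 1 at positions 202331657 to 202341980 (GRCh38), rose most in 769-P. Its normalised reads were 2661 and 2961 with BCAA and 785 and 779 without, a 3.59-fold difference (log2 fold change 1.84, SE 0.07, limma adjusted p = 1.91e-09). In CAKI-1 UBE2T had 1138 and 1167 reads with BCAA and 519 and 486 without (1.20, SE 0.09, limma adjusted p = 5.69e-06). The groups were far apart in both lines. FANCB, an X-linked scaffold subunit of the core, rose most in CAKI-1, from 79.8 and 87.5 to 292 and 224 reads (1.60), and in 769-P from 135 and 117 to 279.8 and 247 (1.05).

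FANCA, a core scaffold gene mutated in many patients with Fanconi anaemia, rose from 149 and 206 to 477 and 475 reads in CAKI-1 (1.44) and from 794 and 792 to 1365 and 1233 in 769-P (0.71). FANCM, the translocase that anchors the core to DNA, rose by 1.41 in 769-P and 1.17 in CAKI-1, but it had the lowest level per kilobase of exon of all members without BCAA in either line, with 38.5 and 51.4 reads in 769-P. FANCG, a scaffold partner of FANCA, and FANCL, the ubiquitin ligase itself, rose in 769-P and had smaller values in CAKI-1. FANCG had 1782 and 1703 reads with BCAA and 1058 and 979.5 without in 769-P (0.77), and 977 and 1054 against 891 and 863 in CAKI-1 (0.21, limma adjusted p = 0.105). FANCL had 1028 and 1052 against 691 and 663 in 769-P (0.62), and 559 and 583 against 532 and 515 in CAKI-1 (0.13, limma adjusted p = 0.427).

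The other core genes had smaller values. FANCC had log2 fold changes of 0.22 in 769-P, which was called, and 0.27 in CAKI-1, which was not. FANCE, which links the core to FANCD2, had 262 and 245 reads with BCAA and 263 and 336 without in 769-P (-0.23, limma adjusted p = 0.249), and its value in CAKI-1 was 0.30. FANCF, an adaptor subunit encoded by a single exon on chromosome 11, was the core gene called lower: 1398 and 1341 reads with BCAA against 1493 and 1641 without in 769-P (-0.19, SE 0.07, limma adjusted p = 0.0479), and 434 and 443 against 603 and 588 in CAKI-1 (-0.44, SE 0.10, limma adjusted p = 0.0085). The call in 769-P was lost in 8 of 13 alternative settings, stricter thresholds among them. These included DESeq2 (adjusted p = 0.0884) and reads thinned to equal depth (limma adjusted p = 0.102). The FANCC call in 769-P was lost without a filter on low values (limma adjusted p = 0.0604).

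The core's substrate rose as a pair. FANCD2 had 1634 and 1619.6 reads with BCAA and 633 and 668 without in 769-P (1.32), and 692 and 608 against 265 and 274 in CAKI-1 (1.26). FANCI had 7228 and 6482 against 3432 and 3224 in 769-P (1.04), and 1484 and 1256 against 595 and 542 in CAKI-1 (1.26). Neither gene's effect passed the test of a difference between the lines, with 95% intervals from -0.22 to 0.34 for FANCD2 and from -0.48 to 0.04 for FANCI, 769-P minus CAKI-1.

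**Figure D2:**
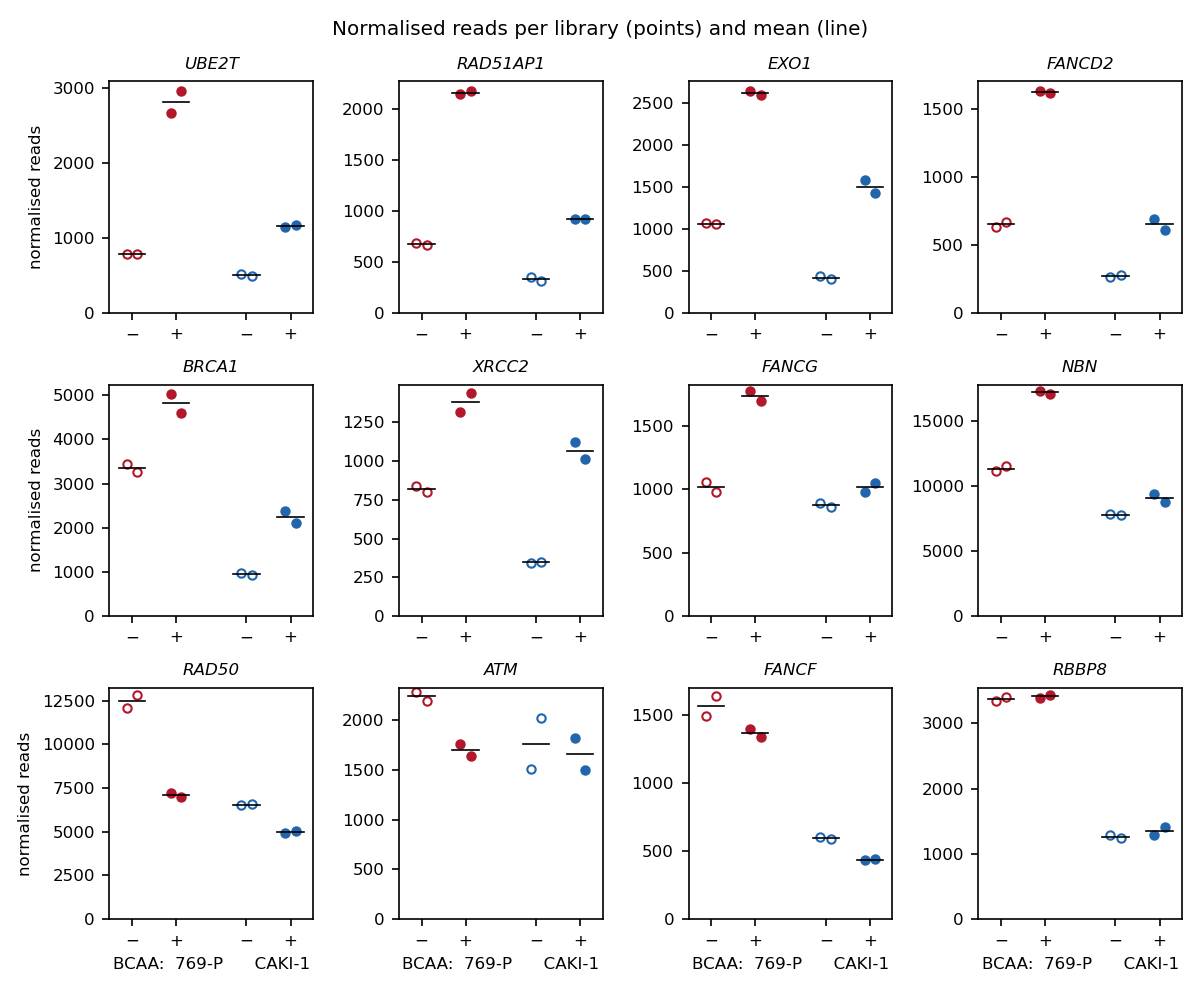
Normalised reads per library for 12 members without (-, open) and with (+, filled) BCAA in 769-P (red) and CAKI-1 (blue); the line is the mean of 2 libraries and each axis starts at 0. Levels are comparable within a line only, since each table was normalised on its own. RAD50 and FANCF drop with BCAA in both lines, RBBP8 was called in neither line, and ATM overlaps in CAKI-1.

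Of the BRCA1-BRCA2 axis, 4 of 5 genes were called higher in each line, with a median of 0.52 in 769-P and 1.24 in CAKI-1. BRCA1, the ubiquitin ligase that promotes resection, had 5035 and 4598 reads with BCAA and 3434 and 3269 without in 769-P (0.52, SE 0.06). In CAKI-1 it had 2369.9 and 2110.1 against 968 and 919 (1.24, SE 0.08). BARD1, its obligate partner, rose in 769-P from 615 and 654 to 1413 and 1381 reads (1.14) and in CAKI-1 by 1.29. BRIP1, a helicase that binds BRCA1, rose from 582 and 574 to 1623 and 1243 in CAKI-1 (1.296) and by 0.90 in 769-P. BRCA2, which acts on the resected single-stranded DNA, had 2026 and 1726 against 1389 and 1383 in 769-P (0.43), and 882 and 683 against 303 and 434 in CAKI-1 (1.10). PALB2, the bridge between BRCA1 and BRCA2, was the member of the axis that was not called. It had 1119.9 and 1083 reads with BCAA and 1056 and 1024 without in 769-P (0.08, 95% interval -0.07 to 0.24), and 462 and 439 against 474 and 530.2 in CAKI-1 (-0.16, 95% interval -0.39 to 0.08).

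The genes that assist strand exchange (the recombinase partners) divided into genes that rose in both lines and a pair that was called in neither. Their median was 0.60 in 769-P and 0.996 in CAKI-1, and the same 6 of 8 were called higher in each line. RAD51AP1, which stimulates the joining of homologous strands, had 2141 and 2175 reads with BCAA and 684 and 662 without in 769-P (1.68, SE 0.07, limma adjusted p = 3.11e-09), and its log2 fold change in CAKI-1 was 1.48. RAD54L, a motor protein that drives strand exchange, had 310.3 and 373 against 95.04 and 109 in CAKI-1 (1.73) and rose by 1.32 in 769-P. Its relative RAD54B rose by 0.68 in 769-P and 1.02 in CAKI-1.

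Of the paralog complexes that support strand exchange, XRCC2 rose from 342 and 349 to 1127 and 1011 reads in CAKI-1 (1.62, SE 0.10) and from 838 and 803 to 1319 and 1439 in 769-P (0.75, SE 0.08). XRCC3 rose by 0.97 in CAKI-1 and by 0.51 in 769-P, where the call was lost without the filter on low values (limma adjusted p = 0.0553). RAD51C, shared by both paralog complexes, rose by 0.30 and 0.47 in 769-P and CAKI-1. RAD51B and RAD51D, which sit with RAD51C and XRCC2 in a complex of all 4, were called in neither line. RAD51B had 129 and 147 reads with BCAA and 153 and 134 without in CAKI-1 (-0.05) and a value of -0.02 in 769-P. The sign of the latter changed under other scalings. RAD51D had 1105 and 1008 against 1117 and 1113 in 769-P (-0.08) and a value of 0.08 in CAKI-1.

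End resection showed opposite calls within a single complex. MRE11, RAD50 and NBN form the sensor that binds broken ends and starts their resection. NBN, the targeting subunit, had 17288 and 17048 reads with BCAA and 11133 and 11514 without in 769-P (0.60, SE 0.04), and 9356 and 8765 against 7794 and 7758 in CAKI-1 (0.22, SE 0.06, limma adjusted p = 0.0184, or 0.0672 after quantile normalisation). RAD50, the ATPase that tethers the ends, moved the other way. It had 7202 and 7009 reads with BCAA and 12094 and 12826 without in 769-P (-0.81, SE 0.05, limma adjusted p = 4.96e-08). In CAKI-1 it had 4905 and 5011 against 6511 and 6569 (-0.40, SE 0.06, limma adjusted p = 4.92e-04). MRE11, the nuclease, was called higher in 769-P (0.39, limma adjusted p = 0.00406, or 0.0720 after quantile normalisation) and was not called in CAKI-1 (0.26, limma adjusted p = 0.0871).

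Without BCAA, NBN ranked first and RAD50 second of the 37 members by normalised reads per kilobase of exon in both lines. Length here counts the merged exons of all GENCODE 29 transcripts of a gene, so these ranks may differ from ranks by transcript number. Per kilobase, the ratio of NBN to RAD50 within a library was 3.81 and 3.86 with BCAA and 1.46 and 1.42 without in 769-P, and 3.03 and 2.78 against 1.90 and 1.87 in CAKI-1. This pair was set side by side after its values were seen. The RAD50 values carry a limit: 79.7% of its exonic bases in GENCODE 29 also belong to a same-strand readthrough locus, AC116366.3, which was not analysed here, and the annotation used for counting is not given in the sources used here.

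EXO1 rose in both lines and RBBP8 was called in neither. EXO1, the nuclease of long-range resection, had 2640.1 and 2592 reads with BCAA and 1064 and 1052 without in 769-P (1.31), and 1574 and 1420.3 against 437 and 398 in CAKI-1 (1.84), the highest log2 fold change of any member in that line. RBBP8, which encodes the MRE11 cofactor CtIP, had log2 fold changes of 0.02 in 769-P (95% interval -0.09 to 0.13, with the sign turning under quantile normalisation) and 0.10 in CAKI-1 (95% interval -0.07 to 0.27). Over the 5 resection genes the median was 0.39 in 769-P and 0.22 in CAKI-1.

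BLM, RMI1 and RMI2 take part in dissolving the joined chromosomes that recombination leaves, and their median was 0.60 in 769-P and 0.78 in CAKI-1. TOP3A, a dissolution gene outside the members, was called lower in 769-P (-0.23, limma adjusted p = 0.0141). It was called higher in CAKI-1 (0.51, limma adjusted p = 0.00107). BLM, the helicase, had 1482 and 1522 reads with BCAA and 956 and 903 without in 769-P (0.69), and 414 and 371 against 164 and 215 in CAKI-1 (1.06). RMI1, its scaffold, had 1620.3 and 1672 against 1101 and 1072 in 769-P (0.60) and a log2 fold change of 0.78 in CAKI-1. RMI2, the smaller partner, rose in 769-P by 0.60 but overlapped between groups in CAKI-1, at 112 and 132 against 115 and 87.5 reads (0.28, limma adjusted p = 0.436).

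In the checkpoint group ATR was called higher in both lines and ATM in neither. ATR, which senses single-stranded DNA, rose by 0.40 in 769-P and 0.44 in CAKI-1, with CHEK1, its effector kinase, and TOPBP1, its activator. CHEK1 had 2202 and 2140.4 reads with BCAA and 1170.1 and 1131 without in 769-P (0.92, SE 0.06), and 1159.7 and 1158 against 801 and 771 in CAKI-1 (0.56, SE 0.08). TOPBP1 had 2546 and 2372 against 1477 and 1479.9 in CAKI-1 (0.73) and rose by 0.57 in 769-P. ATM, the kinase that responds to double-strand breaks, was lower in 769-P, with 1764 and 1645 reads against 2288 and 2198 (-0.40, SE 0.06, limma adjusted p = 2.75e-04). In CAKI-1 its groups overlapped, at 1819 and 1504 against 1507 and 2022 (-0.08, 95% interval -0.36 to 0.20). CHEK2, its effector kinase, rose by 0.77 in 769-P. In CAKI-1 it was called at 0.43 (limma adjusted p = 0.0431). That call was lost in 8 of 13 alternative settings, stricter thresholds among them. These included DESeq2 (adjusted p = 0.0912) and the replicate number as a block (limma adjusted p = 0.0581). The group median was 0.57 in 769-P and 0.44 in CAKI-1.

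Set side by side, the order of the role groups was not the same in both lines. The Fanconi core (0.71) lay above the recombinase partners (0.60) and the checkpoint genes (0.57) in 769-P. In CAKI-1 the recombinase partners (0.996) lay above the checkpoint genes (0.44) and the core (0.30). These are medians over 5 to 9 genes and the order itself was not tested. Gene by gene, the difference between the lines was tested with an interaction term in 1 limma fit over all 8 libraries, in which 10.9% of 19406 genes had an effect further up in 769-P and 10.1% further down. Of the 37 members, 5 were further up in 769-P: UBE2T by 0.65, FANCG by 0.56, FANCL by 0.49, NBN by 0.38 and CHEK1 by 0.36. A further 6 were further down in 769-P: XRCC2 (-0.88), FANCA (-0.73), BRCA1 (-0.72), BRCA2 (-0.66), EXO1 (-0.53) and RAD50 (-0.41). All but RAD50 of these 6 rose in both lines, and more so in CAKI-1, whereas RAD50 fell in both and more so in 769-P. Of the core and E2 genes, 3 of 9 were further up and 1 further down in 769-P. Of the 8 recombinase partners, XRCC2 alone passed, and of the 5 checkpoint genes CHEK1 alone. The calls of BRCA2, FANCA and CHEK1 were each lost when certain single libraries were left out, and that of BRCA2 also with the replicate number as a block (limma adjusted p = 0.0640). For the other 26 members, including FANCC, MRE11 and RMI2, which were called in 769-P but not in CAKI-1, no difference between the lines passed the test.

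**Figure D3:**
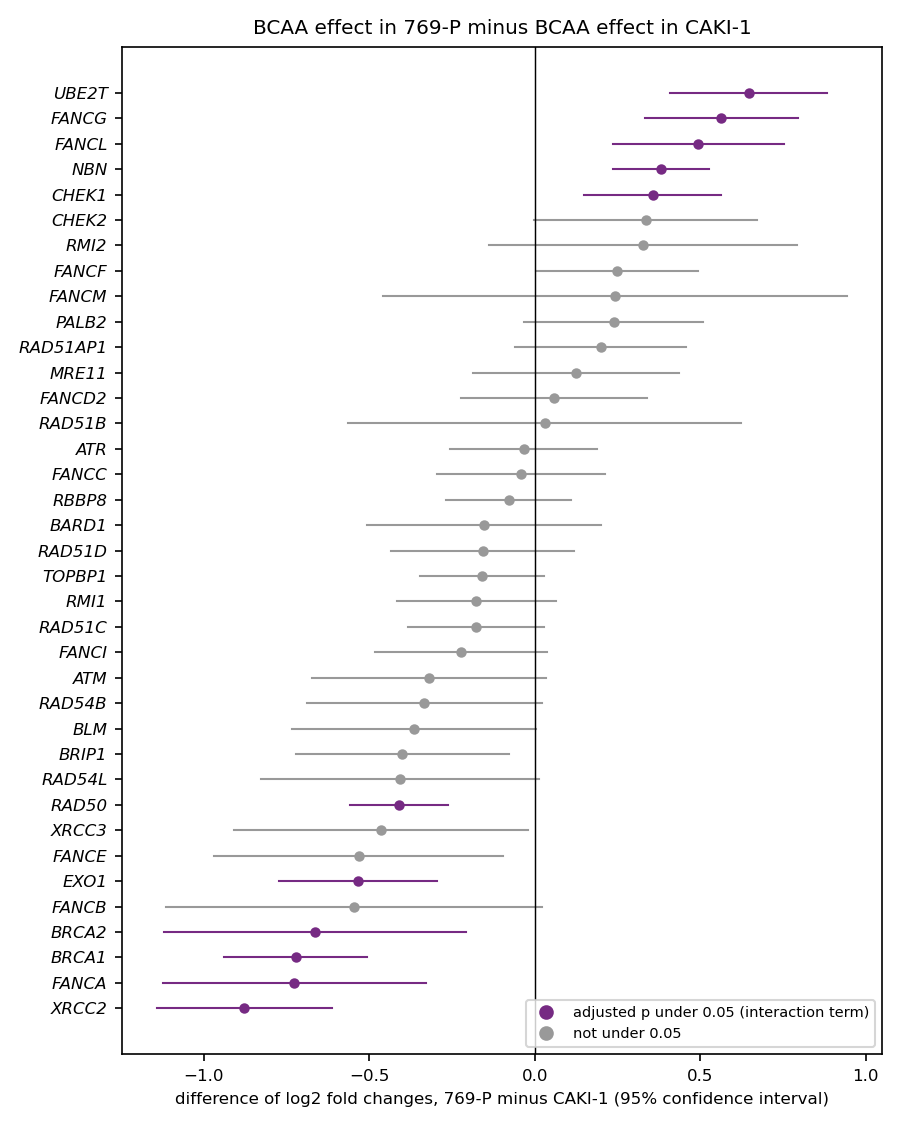
Difference of the BCAA effects (log2 fold change in 769-P minus that in CAKI-1) for each member with its 95% confidence interval from the interaction fit over 8 libraries. Purple marks the 11 members whose difference passed the test, from UBE2T (0.65) at the top to XRCC2 (-0.88) at the bottom.

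The other lists of the pathway had lower medians than the members. Of 58 tested genes in 5 further lists (strand exchange, Fanconi partners, nucleases, checkpoint clamp and fork proteins, and break signalling), 28 were called higher and 8 lower in 769-P, with a median of 0.24. In CAKI-1 23 of 57 were higher and 4 lower, with a median of 0.16. Over all tested genes the shares were 20.3% higher and 18.2% lower in 769-P, and 10.8% and 9.05% in CAKI-1. The share of these lists called lower was thus under that of all genes in each line. CLSPN, the adaptor between ATR and CHEK1, had 1237 and 975 reads with BCAA against 185 and 223 without in CAKI-1 (2.43) and 2591 and 2520.1 against 997 and 958 in 769-P (1.39). H2AX, the histone marked at breaks, rose by 1.58 in 769-P and 1.299 in CAKI-1, and DNA2, a resection nuclease, by 1.33 in 769-P. Among the called genes of these lists, the largest falls in 769-P were of ZSWIM7 (0.52), ABRAXAS1 (0.41) and RAD52 (0.38). In CAKI-1 they were of ABRAXAS1 (0.69), RECQL5 (0.26) and UIMC1 (0.24). ABRAXAS1 is a scaffold of the BRCA1-A complex. Some genes that were not called fell further. The lowest value in 769-P was -0.73, in the break signalling list. In CAKI-1 RAD52 fell by more than RECQL5 and UIMC1 (-0.34, limma adjusted p = 0.188).

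Other repair routes had medians nearer 0. End joining had 0.09 in 769-P and 0.23 in CAKI-1, nucleotide excision repair 0.17 and 0.06, and mismatch repair -0.003 and -0.03. The genes of the replication fork had 0.98 and 0.97, with 24 of 25 called higher in each line, and those of mitosis 1.58 and 1.14, with 14 of 14 called higher in each. The members thus lay between the other repair routes and the cell cycle genes in both lines, and the part of cycling in their change was not tested.

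**Figure D4:**
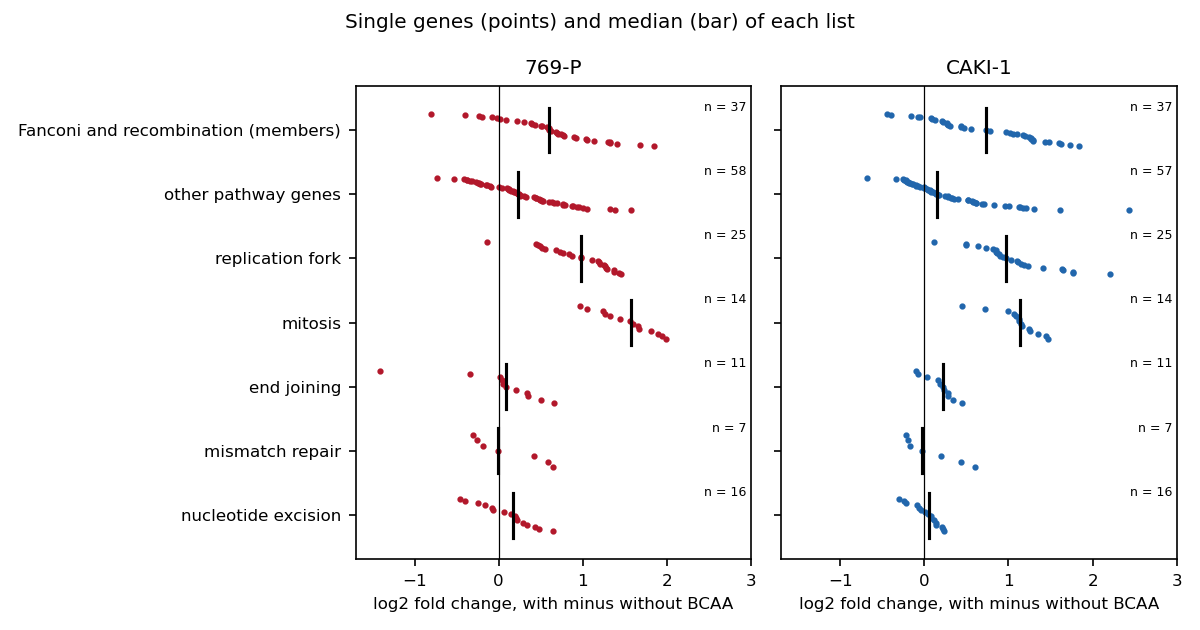
Log2 fold change with minus without BCAA of single genes (points) with the median (bar) for the members and 6 other gene lists in 769-P and CAKI-1; n is the number of tested genes. The member medians of 0.60 and 0.73 lie above those of the repair lists and below those of the replication fork and mitosis lists.

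Several members start within 1000 bases of a gene on the other strand. For 11 such pairs the neighbour had a mean of at least 100 normalised reads in both lines. The RAD51AP1 neighbour C12orf4 had log2 fold changes of 0.34 in 769-P and 0.07 in CAKI-1, far under the 1.68 and 1.48 of RAD51AP1. FANCB and its neighbour MOSPD2 went opposite ways in 769-P (1.05 and -0.32), as did FANCD2 and CIDECP (1.32 and -0.55). NBR2, a noncoding RNA that starts 127 bases from BRCA1, fell by 1.63 in 769-P, where BRCA1 rose, and was not called in CAKI-1 (-0.20). FKBP3 was the neighbour called higher in both lines (0.79 and 0.37), beside FANCM. PALB2, which was not called, lies next to DCTN5, which rose by 0.48 in 769-P. Over the 11 neighbours, 4 were called higher and 3 lower in 769-P, and 1 higher and 1 lower in CAKI-1. The shares over all tested genes were 20.3% higher and 18.2% lower in 769-P, and 10.8% and 9.05% in CAKI-1.

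**Figure D5:**
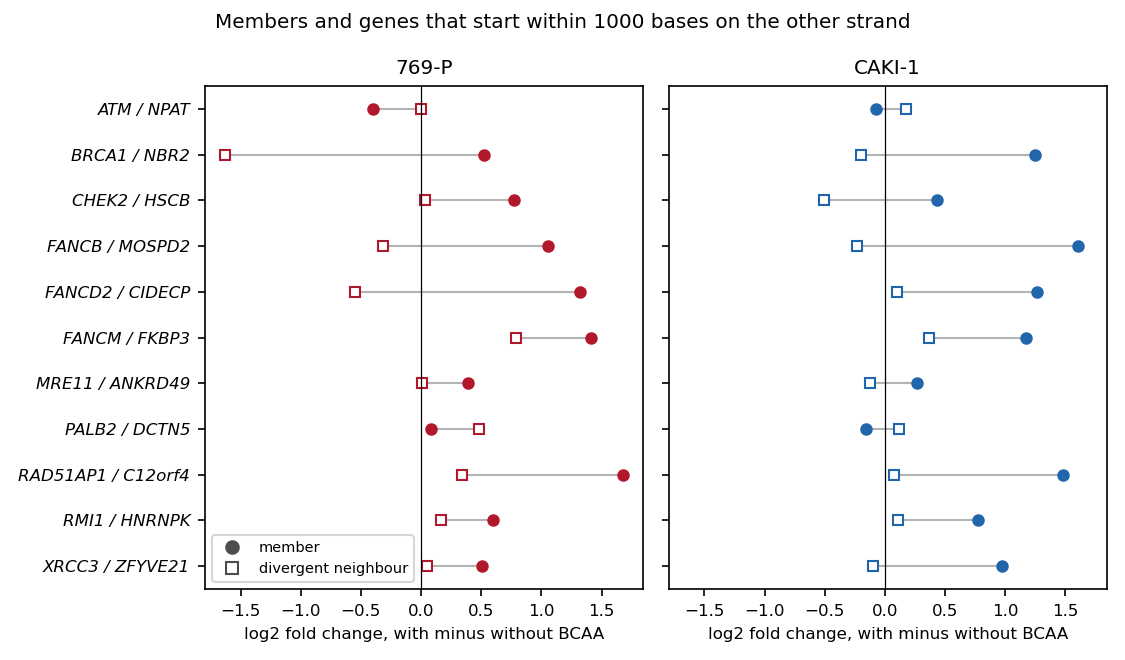
Log2 fold change of 11 members (filled circles) and of the gene that starts within 1000 bases on the other strand (open squares), in 769-P and CAKI-1. Grey lines join a pair. BRCA1 and NBR2 lie farthest apart in 769-P, at 0.52 and -1.63.

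Exons of some members overlap those of other genes, and whether counting used strand is not given in the sources used here. XRCC3 shares 76.7% of its exonic bases with KLC1 on the opposite strand, RAD54L shares 25.1% with LRRC41, FANCA 23.6% with ZNF276 and FANCL 18.7% with VRK2. KLC1 fell by 0.41 in 769-P and ZNF276 by 0.65, both against the direction of the member. In CAKI-1 KLC1 had -0.12 and ZNF276 0.02. LRRC41 had 0.07 in 769-P and fell by 0.20 in CAKI-1. VRK2 had 0.06 in 769-P and fell by 0.32 in CAKI-1, where FANCL was not called. RAD54B shares 59.1% with FSBP on the same strand, which was not analysed here. From CAKI-1 to 769-P the effects of KLC1, ZNF276 and VRK2 differed in the same direction as those of XRCC3, FANCA and FANCL. That of LRRC41 went the other way from RAD54L. The part of shared exons in the differences between the lines was not tested. The values of these genes and of RAD50 are therefore less certain, and smaller overlaps of other members are not listed here.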

How the data were processed

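Human 769-P and CAKI-1 cells were sequenced with and without BCAA. Per the submitters' processing notes, Trim Galore, TopHat2 2.1.0, SAMtools 1.3.1, HTSeq 0.6.0, DESeq and DESeq2 were used with build hg38. The roles of these tools, the annotation and the strand setting are not given in the sources used here. The authors deposited 1 table per line of signal values, which are gene read counts divided by a size factor per library. For both lines 100.0% of values came out as whole reads (within 0.001). The tables were normalised separately, so levels were compared within a line only. Each table lists only genes with reads (at least 2 over its 4 libraries), and 24871 of 25431 identifiers in 769-P and 23727 of 24190 in CAKI-1 were paired with a symbol through GENCODE 29.

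Genes with a mean of at least 1 were tested with limma 3.58.1 (R 4.3.3; empirical Bayes with trend) on log2(value + 1), with 4 libraries and 2 residual degrees of freedom per line. Fold changes on this scale understate those of low genes. The difference between lines was the interaction term of 1 fit over 8 libraries. Because p-values rest on all genes, limma could call genes where an exact permutation test of 2 against 2 libraries cannot go under 0.333. Alternatives were edgeR 4.0.16 (quasi-likelihood, on the recovered reads), which over all genes called 4674 higher and 4360 lower of 16281 in 769-P and 2280 and 2138 of 15869 in CAKI-1, DESeq2 1.42.0, other pseudocounts, filters and scalings, reads thinned to 30979773 per library, the replicate number as a block, and leaving out each library. The fits were tested on simulated data.

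Nothing in the labels says that replicates came from separate cultures, so p-values measure only the spread between these libraries, which may be technical. Between replicates, chi-square per degree of freedom was 3.26 to 11.9, so no pair agreed within sampling noise. Members and lists were chosen with earlier results of these data known. All members were named, with values in every library for the largest and smallest change of each role group in each line, every member whose effect differed between lines and every member called lower, and the 3 largest called rises and falls of the other pathway lists. Some items that these rules would name are not reported here.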

Additional observations from a re-analysis of the deposited data

Results flagged for a closer look

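The BCAA effect differed between the cell lines for 11 of the 37 members, by the interaction term of limma (adjusted over 19406 genes). Of the members 5 were further up and 6 further down in 769-P, beside 10.9% and 10.1% of all genes. Values are log2 fold changes in 769-P minus those in CAKI-1, with 4 libraries per line. The effect was smaller in 769-P for XRCC2 (-0.88, SE 0.12, adjusted p = 1.91e-04), FANCA (-0.73, SE 0.19, adjusted p = 0.0124), BRCA1 (-0.72, SE 0.10, adjusted p = 1.76e-04), BRCA2 (-0.66, SE 0.21, adjusted p = 0.0395) and EXO1 (-0.53, SE 0.11, adjusted p = 0.00341), all of which rose in both lines. RAD50 fell in both lines and further in 769-P (-0.41, SE 0.07, adjusted p = 7.52e-04). The effect was larger in 769-P for UBE2T (0.65, SE 0.11, adjusted p = 8.92e-04), FANCG (0.56, SE 0.11, adjusted p = 0.00197), FANCL (0.49, SE 0.12, adjusted p = 0.00951), NBN (0.38, SE 0.07, adjusted p = 0.00116) and CHEK1 (0.36, SE 0.10, adjusted p = 0.0171).

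The BRCA2 difference was not called by limma without the 769-P BCAA library 1 (adjusted p = 0.0506) or 2 (0.173), the 769-P library 1 (0.106) or 2 (0.101) without BCAA, the CAKI-1 BCAA library 1 (0.151) or the CAKI-1 library 1 without BCAA (0.155). That of FANCA was lost without the 769-P BCAA library 2 (limma adjusted p = 0.0710). The CHEK1 difference was lost without the 769-P BCAA library 1 (limma adjusted p = 0.0633), the 769-P library 2 without BCAA (0.0676) or the CAKI-1 library 1 without BCAA (0.0586). The other 8 differences kept their calls whichever library was left out. FANCA, FANCL and RAD50 share exons with other genes, so their differences between the lines are less certain.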

How the results depend on the processing

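Of 1774 recomputed values of single members, 1523 kept their direction and side of the threshold, 229 lost a call, 3 gained one and 19 changed sign, none of these 19 in a member that had been called. Requiring a 1.5-fold change left 1 member lower in 769-P, 0 lower in CAKI-1 (2 without that requirement in limma, edgeR and DESeq2) and 5 that differed between lines, with 21 and 19 higher. The member median in 769-P was 0.64 with median centering and 0.57 with quantile normalization, and that of the Fanconi core 0.65 with the latter. The dissolution median in 769-P was 0.64, 0.56 and, on thinned reads, 0.65. The recombinase median in CAKI-1 was 0.98 with a pseudocount of 5, 1.04 with median centering and 1.03 with quantile normalization. Median centering and quantile normalization moved the median of all genes by at most 0.041. Without 1 library, members called higher ranged from 17 to 27 in 769-P and from 0 to 26 in CAKI-1, those called lower from 1 to 2 and from 0 to 2, and those that differed from 9 to 13. The upper ends took the spread from the 7 remaining libraries of both lines, an alternative chosen after seeing the data, in which a lone library is assumed to vary like the others. Such medians ran from 0.59 to 0.64 over the members, 0.53 to 0.67 over the recombinase partners, 0.64 to 0.78 over the core and 0.58 to 0.64 over the dissolution genes in 769-P, and from 0.26 to 0.39 over the core and 0.16 to 0.27 over the resection genes in CAKI-1. Values that changed sign were RAD51B in 769-P (0.0186 with median centering, 0.0210 with quantile normalization, and without a library from -0.181 to 0.137, including 0.0332), RBBP8 in 769-P (-0.0198 with quantile normalization), and, without a library of CAKI-1, RAD51B (-0.148 to 0.0444, including 0.0412), RAD51D (-0.0196 to 0.177, including -0.0034) and ATM (-0.289 to 0.134, including 0.0595). Calls nearest the threshold were FANCF, FANCC, XRCC3 and MRE11 in 769-P and CHEK2 and NBN in CAKI-1.

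The replicate numbers did not pair the libraries: deviations of same-numbered libraries had a correlation of -0.015 in 769-P and 0.020 in CAKI-1. With the replicate number as a block, 29 members were higher and 3 lower in 769-P, 23 higher and 2 lower in CAKI-1, and 10 differed between the lines.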

Other observations

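The difference between replicate libraries of 1 condition had its own relation to gene length among the members. The log2 ratio of replicate 1 to replicate 2 had a Pearson correlation with log2 exonic length of 0.36 in 769-P with BCAA, 0.03 in 769-P without, 0.45 in CAKI-1 with and -0.45 in CAKI-1 without, over the 37 members. Over all genes with a mean of at least 100 the values were 0.21, -0.03, 0.19 and -0.12. The BCAA effect itself had -0.40 in 769-P and -0.14 in CAKI-1 over the members, and -0.10 and 0.03 over all such genes. These are descriptions across genes, which share their libraries and are not replicates.

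Some partner proteins had unequal changes of RNA within a library. These changes are given as ratios of normalised reads per kilobase of exon, for pairs chosen after their values were seen. Exon length again counts the merged exons of all transcripts of a gene. A ratio is therefore to be compared between conditions and does not give relative transcript numbers. UBE2T to FANCL, the E2 and E3 enzymes of the core, was 3.78 and 4.11 with BCAA and 1.66 and 1.72 without in 769-P, and 2.97 and 2.92 against 1.42 and 1.38 in CAKI-1. ATR to ATM was 4.44 and 4.25 against 2.52 and 2.47 in 769-P, and 2.81 and 3.01 against 2.31 and 1.79 in CAKI-1. BRCA2 to PALB2 was 0.70 and 0.617 against 0.509 and 0.523 in 769-P, and 0.739 and 0.603 against 0.247 and 0.316 in CAKI-1. FANCD2 to FANCI was 0.2095 and 0.232 against 0.171 and 0.192 in 769-P, and overlapped between conditions in CAKI-1, at 0.432 and 0.449 against 0.413 and 0.469.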
